A study of Mus musculus with 12 samples.

Results

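The early response to tunicamycin was read from 6 GeneChip miRNA arrays of mouse NIH3T3 fibroblasts. Of these, 3 came from cells kept for 2 h in 2 μg ml−1 tunicamycin and 3 from cells without treatment, called 0 h here. All 717 mature mouse miRNAs were compared between both groups, of 1412 mouse probe sets on the array that also read hairpins. NIH3T3 is an established embryonic fibroblast line, and it was proliferating asynchronously in medium with 10% fetal bovine serum. The same series holds 3 arrays at 5 h and 3 at 10 h of the same dose, 12 in all, which were used to tell brief from lasting changes. No array came from untreated cells at 2 h, so an effect of tunicamycin cannot be told apart from one of time or handling. Nothing in the labels ties the 3 arrays of a time to separate cultures. The spread behind each p-value is that between arrays and may be a technical one.

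Tunicamycin blocks N-linked glycosylation, so that proteins misfold in the endoplasmic reticulum and the unfolded protein response (UPR) starts. MicroRNAs are cut as a duplex from a hairpin precursor. One strand is usually kept and pairs with messenger RNAs through its seed, bases 2 to 8, and the other, often written with a star, is mostly lost. Mature miRNAs are on the whole long-lived, but some turn over fast, and several clusters are made as 1 long transcript that MYC and E2F factors drive in cycling cells. Total RNA was measured, so fewer cells with a miRNA and less of it per cell cannot be told apart.

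The sequences of the miRNAs that the results turn on are given first, from RefSeq (GRCm38.p6), with the seed in capitals. RefSeq held a sequence for 402 of the 717, matched by name or, where the array gives an older name, through the usual arm of the hairpin. The first set shows how alike the members of the proliferation clusters are. MiR-17, miR-20a, miR-20b, miR-106a, miR-106b and miR-93 share 1 seed, miR-19a and miR-19b another, and so do miR-92a and miR-25.
miR-17: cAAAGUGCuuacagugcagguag
miR-20a: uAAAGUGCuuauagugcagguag
miR-20b: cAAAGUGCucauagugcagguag
miR-106a: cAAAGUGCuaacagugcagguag
miR-106b: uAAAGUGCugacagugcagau
miR-93: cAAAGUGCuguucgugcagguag
miR-18a: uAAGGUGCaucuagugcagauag
miR-19a: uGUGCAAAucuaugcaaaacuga
miR-19b: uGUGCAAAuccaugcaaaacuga
miR-92a: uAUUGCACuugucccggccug
miR-25: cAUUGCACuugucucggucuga

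The second set holds other miRNAs that the text describes, among them strands, neighbours and relatives whose changes at 2 h are set side by side, and the 2 miRNAs with the steepest falls.
miR-29b: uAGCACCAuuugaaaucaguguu
miR-29b*: gCUGGUUUcauauggugguuua
miR-29c: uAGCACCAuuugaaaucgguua
miR-15a: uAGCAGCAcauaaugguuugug
miR-15b: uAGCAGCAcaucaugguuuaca
miR-34a: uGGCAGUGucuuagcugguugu
miR-34b-3p: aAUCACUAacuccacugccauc
miR-34c*: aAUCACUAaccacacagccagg
miR-503: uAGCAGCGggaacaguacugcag
miR-10a: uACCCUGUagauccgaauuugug
miR-10b: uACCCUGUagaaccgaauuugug
miR-205: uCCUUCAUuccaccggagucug
miR-200c: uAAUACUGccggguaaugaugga

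Values are the log2 values that the authors deposited after RMA, and a change is the difference of 2 means on that scale. A background limit, set for each array from the spread of its dim values, lay between 3.30 and 3.47, with between 49.9% and 52.6% of the mature miRNAs above it. A miRNA was called where its p in a limma fit of all 12 arrays stayed under 0.05 after Benjamini-Hochberg adjustment over the 717. An exact permutation test of 3 arrays against 3 reaches a p of 0.1 at best, and each call therefore leans on the pooled spread of that fit. The 12 fibroblast markers were above the limit on all arrays of both times, while the liver marker and both endothelial markers were at or below it on at least 1 array of each time, as were the 6 blood cell markers. Of 4 muscle markers 1 was above it on all arrays of both times, and of 4 neuron markers 2 were. No marker of these 5 cell types was called. The hairpin probe sets of miR-17, miR-18a, miR-19a, miR-20a, miR-29b-1, miR-101b and miR-503 were at or below the limit on all 6 arrays, so these precursors could not be compared. That of miR-106b was above it on 5 of the 6 arrays, with 3.54 to 3.70 at 2 h and 3.40 to 3.79 at 0 h. That of miR-93 was above it on all 6, with 4.63 to 5.03 at 2 h and 4.66 to 4.79 at 0 h. In both, the 2 h and 0 h arrays overlapped.

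At 2 h, 53 miRNAs were higher than at 0 h (7.39% of 717) and 42 were lower (5.86%). The 2 h arrays lay all above the 0 h arrays for 17.6% of the miRNAs and all below them for 12.6%. No called miRNA had overlapping arrays. Most changes were small. The median size of a called rise was 0.32 and of a called fall 0.45, and 46 of the 53 rises and 25 of the 42 falls were under 0.5. A change of at least 1 was found for 1 called rise, miR-543, and for 5 called falls. Nearly all called miRNAs were well measured, with 51 of the rises and 38 of the falls above the limit on all 6 arrays. The split of rises and falls depended on the scaling. With each array shifted to 1 median, 7 were higher and 30 lower. Of the 53 rises 7 kept their call there, and of the 42 falls 29 did. Single arrays moved the counts too. The rises went to 29 and the falls to 29 when the second 0 h array was left out. Leaving out the first 2 h array gave 29 rises and 32 falls, and leaving out the third gave 33 rises and 28 falls.

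**Figure D1:**
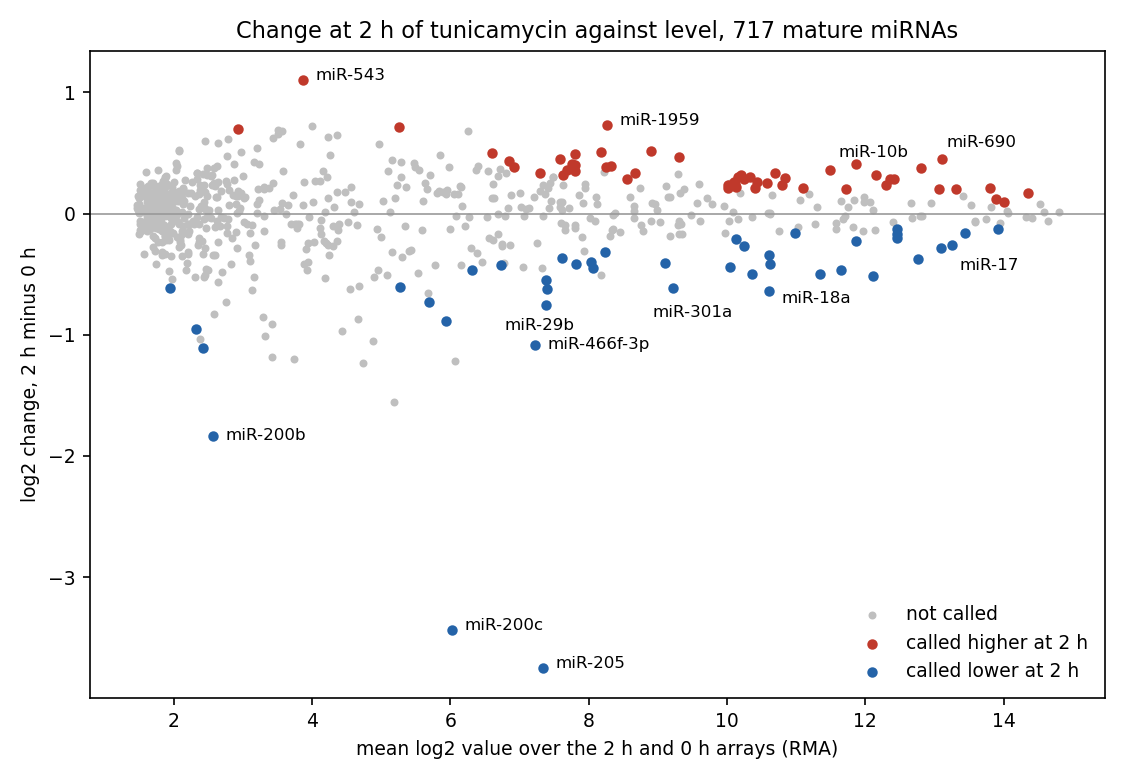
Log2 change at 2 h (2 h minus 0 h, vertical axis) against the mean log2 value over both times (horizontal axis) for the 717 mature miRNAs, 1 point each. The 53 called rises (red) stayed at or below 1.10, and miR-205 and miR-200c lay far below all other called falls (blue).

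The miR-17-92 cluster dipped at 2 h in 5 of its 6 members, and 4 of these 5 were called higher again at 5 h than at 2 h. Over all 717, 5.86% were lower at 2 h and 5.86% higher at 5 h than at 2 h. The miR-17-92 cluster, known as oncomiR-1, lies on chromosome 14 (chr14:115043684-115044496, plus strand, GRCm38.p6). MiR-18a had log2 values of 10.34, 10.31 and 10.21 on the 2 h arrays and 10.94, 10.89 and 10.95 on the 0 h arrays. It fell by 0.64 (standard error 0.059, adjusted p = 4.2e-06 in limma), which is a level of 0.64 times that at 0 h, and all 3 arrays at 2 h were low. MiR-20a, which shares its seed with miR-17, had 12.57, 12.61 and 12.56 at 2 h and 12.96, 12.93 and 12.99 at 0 h. It fell by 0.38 (standard error 0.033, adjusted p = 3.1e-06). MiR-17 had 13.15, 13.12 and 13.10 at 2 h and 13.36, 13.37 and 13.40 at 0 h, a fall by 0.26 (standard error 0.031, adjusted p = 4.3e-05).

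The miR-19 members, which carry much of the oncogenic action of the cluster, dipped as well. MiR-19b had 11.85, 11.78 and 11.93 at 2 h and 12.41, 12.44 and 12.27 at 0 h, and it fell by 0.52 (standard error 0.061, adjusted p = 3.8e-05). MiR-19a had 7.25, 7.04 and 6.99 at 2 h and 7.70, 7.83 and 7.60 at 0 h, and it fell by 0.62 (standard error 0.16, adjusted p = 0.022). The call of miR-19a was lost without the first or second 0 h array and without the second or the third 2 h array, with adjusted p values of up to 0.079. MiR-92a, the last hairpin of the same transcript, was the exception. It had 12.06, 12.08 and 12.01 at 2 h and 11.94, 11.83 and 11.96 at 0 h, a change of 0.14 that was not called (adjusted p = 0.097), although the arrays did not overlap. The median change of the 6 members was −0.45, against 0.03 over all 717. Without the second 0 h array, 4 of the 6 were called lower.

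**Figure D2:**
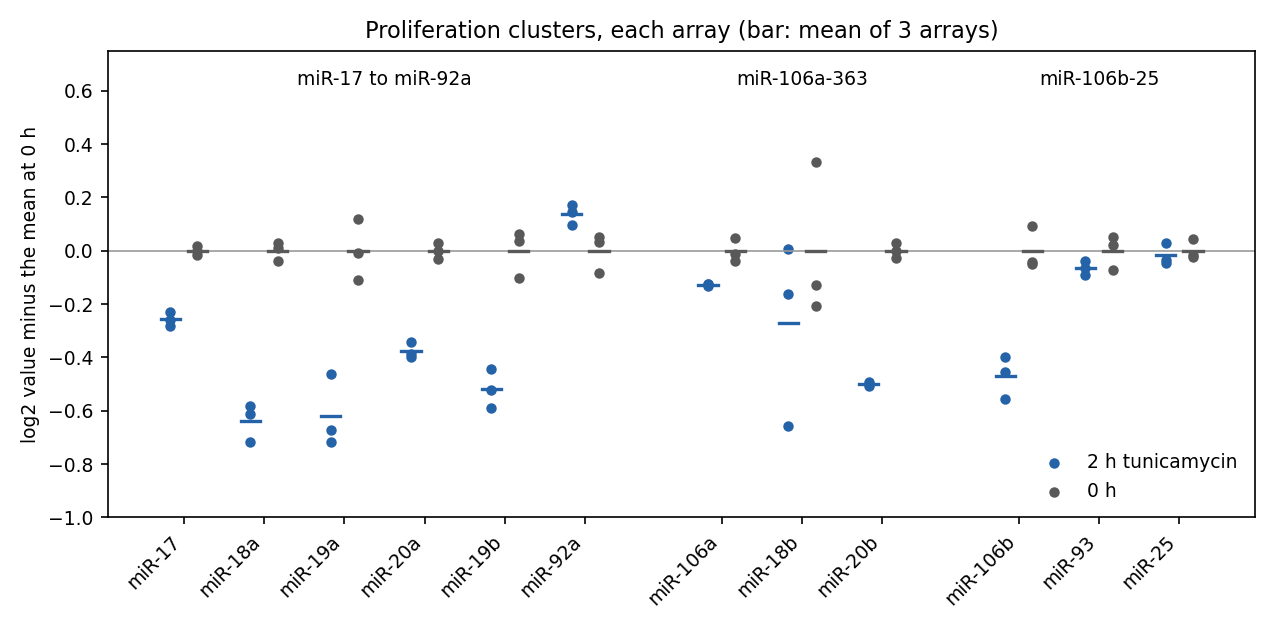
Log2 value of each array minus the mean at 0 h (vertical axis) for members of the 3 proliferation clusters, with 2 h tunicamycin (blue) left of 0 h (grey). Points are single arrays and bars the means of 3. MiR-18a, miR-20b and miR-106b sat below 0 h on all 3 arrays at 2 h, and miR-92a, miR-93 and miR-25 did not show the dip.

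Members of 1 transcript thus differed in the size of their change. The ratio of 2 miRNAs within an array does not depend on a constant shift of that array. It can still change under scaling that acts by level, such as quantile normalization. The log2 ratio of miR-18a to miR-92a changed by −0.78 from its mean at 0 h (standard error 0.034), that of miR-20a to miR-92a by −0.52 (standard error 0.030) and that of miR-17 to miR-92a by −0.40 (standard error 0.045). The ratio of miR-18a to miR-17 changed by −0.38 (standard error 0.033). In each, the 2 h arrays did not overlap the 0 h arrays, and the exact two-sided permutation p was 0.1, the smallest that 3 against 3 can give. The same held for all 25 pairs compared here. The pairs were chosen after their values were seen, so the ratios describe them and are no test. MiR-19b and miR-92a are also made from the X chromosome, and the array cannot tell the copies apart.

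Of the 5 star strands of the same cluster none was called, and their median change was −0.06. MiR-17* had 8.93, 8.83 and 8.83 at 2 h and 8.95, 8.84 and 8.99 at 0 h. MiR-18a* had 7.32, 7.41 and 7.44 at 2 h and 7.23, 7.13 and 7.25 at 0 h, a change of 0.19 (adjusted p = 0.25). The log2 ratio of miR-18a to miR-18a* changed by −0.82 (standard error 0.076). MiR-20a*, miR-19a* and miR-92a* changed by −0.40, 0.17 and −0.09, with standard errors of 0.36, 0.18 and 0.47, and so were measured too loosely to compare.

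Of the X-linked relatives, which lie in the miR-106a-363 cluster (chrX:52741697-52742563, minus strand), miR-20b fell to 11.11, 11.10 and 11.09 at 2 h, against 11.60, 11.63 and 11.57 at 0 h. The change was −0.50 (standard error 0.053, adjusted p = 1.5e-05). MiR-106a fell by only 0.13 (standard error 0.039, adjusted p = 0.044), and this call was lost when any of the 6 arrays was left out, with adjusted p values of up to 0.17. MiR-18b changed by −0.27 (adjusted p = 0.63), and miR-363 did not reach the limit on any of the 6 arrays. Several of these probes read near-identical sequences. MiR-17 and miR-106a differ at 1 of 23 bases and miR-20a and miR-20b at 2, and how much of their signal is shared was not tested.

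The miR-106b-25 cluster, which sits in an intron of the replication gene Mcm7 (chr5:138165332-138165807, minus strand), dipped in 1 of its 3 members. MiR-106b had 11.48, 11.32 and 11.42 at 2 h and 11.83, 11.83 and 11.97 at 0 h, a fall by 0.47 (standard error 0.051, adjusted p = 1.6e-05). MiR-93 differed by −0.07 (adjusted p = 0.31) and miR-25 by −0.02 (adjusted p = 0.88), and their 2 h and 0 h arrays overlapped. The log2 ratio of miR-106b to miR-93 changed by −0.40 (standard error 0.058). The star strand miR-93* rose by 0.32 (standard error 0.084, adjusted p = 0.022), a call lost without the second or the third 0 h array and without the first or the third 2 h array (adjusted p up to 0.095) and under the shift to 1 median. MiR-106b* differed by 0.20 (adjusted p = 0.20). Over the 6 measured miRNAs with the seed AAAGUGC, 5 were called lower (5.86% of all 717 were lower), with a median change of −0.32.

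Among 9 miRNAs known for fast turnover, 2 were lower at 2 h, none was higher and 7 were not called. Of all 717, 42 or 5.86% were lower, a share that was larger among bright miRNAs. The median change of the 9 was −0.22, and −0.03 without the second 0 h array. The value of −0.22 was that of miR-211, which did not reach the limit on any of the 6 arrays. MiR-29b, one of a family that restrains collagen genes, had 6.77, 7.20 and 7.04 at 2 h and 7.75, 7.90 and 7.62 at 0 h. It fell by 0.76 (standard error 0.15, adjusted p = 0.0031). MiR-29a fell by 0.16 (adjusted p = 0.0075) and lost this call under the shift to 1 median, and miR-29c differed by −0.02 (adjusted p = 0.97). The 3 share 1 seed, and the log2 ratio of miR-29b to miR-29c changed by −0.74 (standard error 0.14).

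MiR-503, which restrains cyclins and is quickly lost in published cell systems, had 7.19, 7.07 and 7.07 at 2 h and 7.63, 7.61 and 7.74 at 0 h. It fell by 0.54 (standard error 0.10, adjusted p = 0.0026), and it went on to −1.40 at 10 h. MiR-322, from the same transcript, had 7.08, 7.11 and 7.22 at 2 h and 7.42, 7.39 and 7.32 at 0 h. Its change of −0.24 was not called (adjusted p = 0.19), although the arrays did not overlap. MiR-382 differed by 0.36 (adjusted p = 0.14), miR-183 by 0.08, miR-182 by −0.04 and miR-96 by −0.23, none of them called. MiR-204 and miR-211 did not reach the limit on any of the 6 arrays.

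Other miRNA families held members of both kinds, called and not called. Of the 5 measured miRNAs of the miR-15 and miR-16 family 2 were called lower and 1 higher. Over all 717, 5.86% were lower and 7.39% higher. MiR-15a, which restrains cyclins and Bcl2, had 9.77, 9.80 and 9.91 at 2 h and 10.27, 10.32 and 10.22 at 0 h, and it fell by 0.44 (standard error 0.067, adjusted p = 0.00039). Its close relative miR-15b, from another chromosome, had 13.13, 13.13 and 13.24 at 2 h and 13.01, 12.92 and 12.96 at 0 h, a rise by 0.20 (adjusted p = 0.0026) that was not called under the shift to 1 median or after quantile normalization. The log2 ratio of miR-15a to miR-15b changed by −0.64 (standard error 0.048). MiR-16, made beside each of them, fell by 0.13 (adjusted p = 0.012), a call lost without the second 0 h array (adjusted p = 0.059) and under the shift to 1 median.

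MiR-34a, a target of p53, had 10.41, 10.44 and 10.38 at 2 h and 10.77, 10.86 and 10.85 at 0 h, and it fell by 0.41 (standard error 0.055, adjusted p = 0.00010). MiR-34c had 10.21, 10.04 and 10.06 at 2 h and 10.58, 10.62 and 10.62 at 0 h, a fall by 0.50 (standard error 0.053, adjusted p = 1.5e-05). MiR-301a, which lies in the gene Ska2, had 8.88, 8.88 and 8.96 at 2 h and 9.62, 9.65 and 9.30 at 0 h. It fell by 0.61 (standard error 0.10, adjusted p = 0.00087), while miR-130a and miR-130b of the same seed differed by −0.11 and −0.14 and were not called. MiR-101b, of a family that restrains Ezh2, had 5.44, 5.16 and 5.39 at 2 h and 6.11, 6.03 and 6.04 at 0 h. It fell by 0.73 (standard error 0.17, adjusted p = 0.012), a call that was lost after quantile normalization. Of the 5 measured members of the miR-23, miR-27 and miR-24 families 2 were called lower and 3 were not called (median change −0.06). Of the 5 miR-30 miRNAs 1 was called lower and 4 were not called (median change −0.09). Over all 717, 5.86% were lower. MiR-27a fell by 0.28 (standard error 0.028, adjusted p = 9.1e-06), miR-30a by 0.34 (standard error 0.051, adjusted p = 0.00039) and miR-27b by 0.17 (adjusted p = 0.0057, lost under the shift to 1 median). The 9 let-7 miRNAs had a median change of 0.01, with let-7d alone called, at 0.12 (adjusted p = 0.025, lost under the shift to 1 median and without any of 4 arrays).

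Some of the changes were brief. A change was counted as transient where the miRNA was called at 2 h, called in the other direction from 2 h to 5 h, and not called in its first direction at 5 h against 0 h. Of the 42 falls 22 were transient (3.07% of all 717), 3 returned only by 10 h, 9 were called lower at all 3 times, and 8 fitted none of these. With each array shifted to 1 median 14 of 30 falls were transient, and by the methods' t-test after Benjamini-Hochberg adjustment 9 of 21 were. Of the 53 rises 20 were transient (2.79%), 2 returned by 10 h, 7 were called higher at all 3 times, and 24 fitted none of these. From 2 h to 5 h, 42 miRNAs were higher (5.86%) and 35 lower (4.88%), and from 2 h to 10 h 41 were higher (5.72%) and 37 lower (5.16%). Against 0 h, 31 were higher (4.32%) and 29 lower (4.04%) at 5 h, and 40 were higher (5.58%) and 51 lower (7.11%) at 10 h. All of these comparisons share arrays. The counts are therefore descriptions, and a value at 2 h that was high or low by chance enters 2 of them with opposite sign.

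At 2 h the median change of the 22 transient falls was −0.41, and it came to 0.06 by 5 h and to −0.12 by 10 h. MiR-18a changed by −0.64 at 2 h, by 0.08 at 5 h and by −0.13 at 10 h. In the same order of times, miR-20a had changes of −0.38, −0.00 and 0.02. MiR-27a had −0.28, 0.06 and −0.05, and miR-30a −0.34, 0.05 and −0.01. MiR-34a had −0.41, −0.04 and −0.14. MiR-106b had −0.47, −0.06 and −0.18, and miR-34c −0.50, −0.10 and −0.25, so that these 2 were again somewhat lower at 10 h. These 7 were classed as transient under each of the 25 alternatives, and no other fall was. MiR-17 and miR-29b were transient in the fit, at −0.10 and −0.18 at 5 h, as were miR-301a and miR-15a, at −0.11 and −0.22. At 10 h the changes of miR-17, miR-29b and miR-301a were −0.04, −0.40 and −0.26 and were not called, whereas miR-15a was called lower again, at −0.34 (adjusted p = 0.0030). MiR-15a kept this class in 5 of the 25 alternatives and miR-17 in 17. MiR-19b and miR-20b recovered only in part at 5 h, to −0.22 and −0.27, and were at −0.17 each at 10 h.

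**Figure D3:**
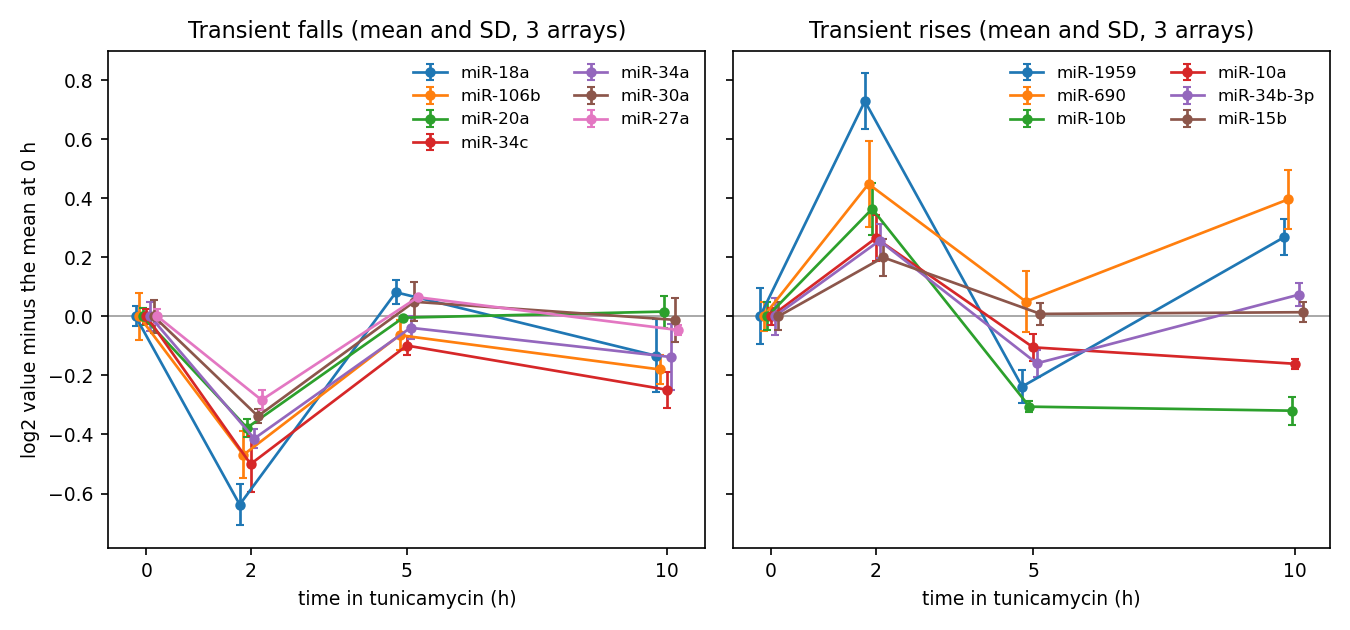
Mean log2 value minus the mean at 0 h (vertical axis) at 0, 2, 5 and 10 h of tunicamycin (horizontal axis) for the 7 falls that were transient under every alternative (left) and 6 transient rises (right). Bars are SDs of 3 arrays. MiR-18a went to −0.64 at 2 h and 0.08 at 5 h, and miR-10b to 0.36 at 2 h and −0.31 at 5 h.

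The transient rises included the 2 Hox-cluster miRNAs of the miR-10 family. Their sequences differ at 1 of 23 bases, and how much signal they share was not tested. MiR-10b, which lies in the Hoxd cluster, had 11.56, 11.72 and 11.72 at 2 h and 11.35, 11.30 and 11.26 at 0 h. It rose by 0.36 (standard error 0.048, adjusted p = 0.00010) and was lower than at 0 h by 5 h, with a change of −0.31 (adjusted p = 0.00087). MiR-10a, in the Hoxb cluster, had 10.48, 10.63 and 10.60 at 2 h and 10.34, 10.30 and 10.28 at 0 h, and it rose by 0.27 (adjusted p = 0.0023, lost under the shift to 1 median). MiR-1959 had 8.67, 8.71 and 8.53 at 2 h and 7.98, 7.80 and 7.94 at 0 h. It rose by 0.73 (standard error 0.080, adjusted p = 1.9e-05), stood at −0.24 at 5 h and 0.27 at 10 h, and was the 1 rise called and classed as transient under all 25 alternatives.

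MiR-690 had 13.25, 13.50 and 13.25 at 2 h and 12.94, 12.87 and 12.85 at 0 h, a rise by 0.45 (standard error 0.068, adjusted p = 0.00041). It was back at 0.05 at 5 h and stood at 0.40 at 10 h. MiR-214, made with miR-199a from the mesenchymal transcript Dnm3os, had 13.03, 12.93 and 13.02 at 2 h and 12.69, 12.48 and 12.69 at 0 h. It rose by 0.37 (adjusted p = 0.0023, lost under the shift to 1 median) and stood at 0.09 at 5 h. MiR-543, from the imprinted miRNA cluster on chromosome 12, had 4.38, 4.35 and 4.54 at 2 h and 2.94, 3.36 and 3.66 at 0 h. Only 1 of the 3 arrays at 0 h was above the limit. It rose by 1.10 (standard error 0.30, adjusted p = 0.023) and was at −0.03 at 5 h. Its call was lost under the shift to 1 median, without the first or second 0 h array and without the first or the third 2 h array, with adjusted p values of up to 0.095. MiR-501-3p, miR-494, miR-1944, miR-2145 and miR-28* made up the rest of the 10 largest transient rises, with changes between 0.30 and 0.38 at 2 h. Of these, miR-501-3p and miR-494 lost their calls without any of 4 of the 6 arrays (adjusted p up to 0.074 and 0.097).

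Some early changes lasted, 9 falls and 7 rises. MiR-132, a target of the cAMP-responsive factor CREB, had 8.72, 8.65 and 8.71 at 2 h and 8.42, 8.35 and 8.44 at 0 h. Its change was 0.29 at 2 h (standard error 0.068, adjusted p = 0.011), 0.28 at 5 h and 0.56 at 10 h. MiR-145, known from smooth muscle and mesenchyme, had 13.44, 13.41 and 13.38 at 2 h and 13.23, 13.16 and 13.22 at 0 h, and its changes were 0.21, 0.24 and 0.30. Both lost the call at 2 h under the shift to 1 median. MiR-720, since reclassified as a tRNA fragment, had 8.07, 8.10 and 7.99 at 2 h and 7.66, 7.43 and 7.59 at 0 h. Its changes at 2, 5 and 10 h were 0.49, 0.54 and 0.71. MiR-155, an immune regulator, rose by 0.22 (adjusted p = 0.017), a call lost without the first 0 h or first 2 h array (adjusted p up to 0.066), and was not called at 5 h. Among miRNAs above the limit on all 6 arrays, the other large rises at 2 h were those of miR-671-3p (0.72), miR-1937b (0.52), miR-1935 (0.51), miR-409-3p (0.50), miR-1937a (0.47), miR-27b* (0.45), miR-1981 (0.44) and miR-1195 (0.41). Without single arrays the adjusted p went up to 0.22 for miR-671-3p, 0.095 for miR-1935, 0.19 for miR-409-3p, 0.12 for miR-27b* and 0.098 for miR-1981. MiR-671-3p lost its call without any of the 6 arrays, and the other 4 each without 3 or 4 single arrays, the first or second 0 h array among them. The change of miR-1195 was 0.25 without the second 2 h array. MiR-21* was also called higher (adjusted p = 0.046), but it was below the limit on all 0 h arrays and on 1 of the 3 at 2 h, and its call was lost without any of 5 of the 6 arrays.

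Both strands of a hairpin were on the array for 180 hairpins and above the limit for 65. In 6 of these 65 both strands were called, in 26 only 1 was, and in 33 none was. Over all 717, 7.39% were higher and 5.86% lower. In 5 of the 6 hairpins with both strands called, the strands moved in opposite directions. The pairs were picked out for this difference, so the values describe them. MiR-29b fell by 0.76, while miR-29b* had 7.83, 8.08 and 8.01 at 2 h and 7.73, 7.60 and 7.54 at 0 h, a rise by 0.35 (adjusted p = 0.023). The log2 ratio of miR-29b to miR-29b* was −1.05, −0.89 and −0.98 on the 2 h arrays and 0.02, 0.30 and 0.08 on the 0 h arrays, a change of −1.11 (standard error 0.096). For miR-34c and miR-34c* the ratio changed by −0.76 (standard error 0.068), for miR-671-5p and miR-671-3p by −1.13 (standard error 0.15), for miR-27b and miR-27b* by −0.62 (standard error 0.13) and for miR-140 and miR-140* by −0.32 (standard error 0.10). At the later times the ratios differed from 0 h as follows. The ratio of miR-29b to its star strand was at −0.54 at 5 h and at −0.45 at 10 h. That of miR-34c was at −0.21 and −0.52, and that of miR-671-5p to miR-671-3p at −0.19 and −0.98, so that both were again lower at 10 h. That of miR-27b was at −0.46 and 0.01, and that of miR-140 at 0.05 and −0.24. The calls of miR-29b*, miR-34c*, miR-27b*, miR-671-3p, miR-140* and miR-140 were each lost under the shift to 1 median and without 4 or more of the 6 arrays in turn (adjusted p up to 0.22). That of miR-671-5p was kept under the shift and lost without 4 of the arrays (adjusted p up to 0.079).

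**Figure D4:**
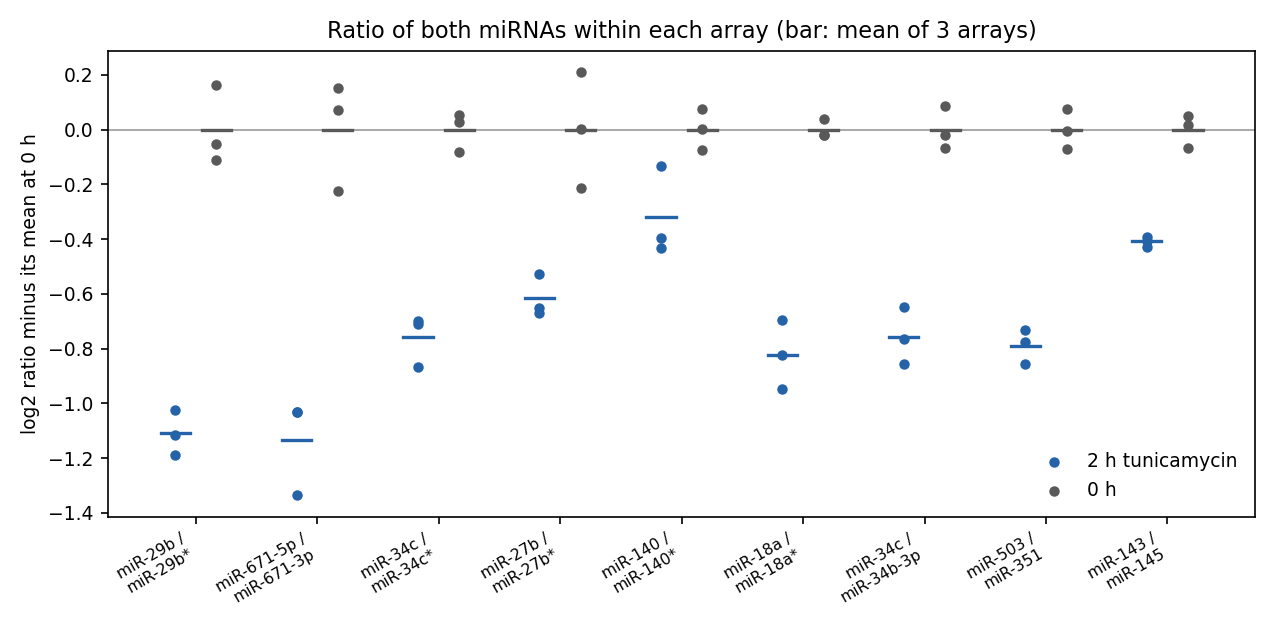
Log2 ratio of 2 miRNAs within each array minus its mean at 0 h (vertical axis) for strands of 1 hairpin and for neighbours of 1 transcript, with 2 h tunicamycin (blue) left of 0 h (grey). Points are single arrays and bars the means of 3. The ratio of miR-29b to miR-29b* changed by −1.11 and that of miR-143 to miR-145 by −0.41.

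Strands from neighbouring hairpins of 1 transcript also moved apart. MiR-34b-3p and miR-34c* share the seed AUCACUA and rose by 0.26 each, whereas miR-34c fell by 0.50, and all 3 come from 1 locus on chromosome 9. MiR-34b-5p, the other strand of the miR-34b hairpin, changed by −0.44 (standard error 0.15), which was not called (adjusted p = 0.065). By these values miR-34b-5p went with miR-34c, and the strands of each hairpin went apart. MiR-34b-3p had 10.70, 10.65 and 10.76 at 2 h and 10.48, 10.37 and 10.48 at 0 h (adjusted p = 0.0031, lost under the shift to 1 median). The log2 ratio of miR-34c to miR-34b-3p changed by −0.76 (standard error 0.075). In the X-linked cluster of miR-322 and miR-503 (chrX:53048008-53054327, minus strand), miR-351 rose by 0.24 (standard error 0.064, adjusted p = 0.022) while miR-503 fell. The call of miR-351 was lost under the shift to 1 median and without the first or the third array of either time (adjusted p up to 0.078), and the ratio of miR-503 to miR-351 changed by −0.79 (standard error 0.056). MiR-143 had 12.37, 12.37 and 12.34 at 2 h and 12.52, 12.57 and 12.60 at 0 h, a fall by 0.20 (adjusted p = 0.0017, lost under the shift to 1 median), against the rise of its neighbour miR-145. Their ratio changed by −0.41 (standard error 0.037).

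The steepest falls were in miRNAs of epithelial cells, where miR-205 and the miR-200 family restrain Zeb1 and Zeb2. MiR-205 (chr1:193507503-193507524, minus strand) had 5.73, 5.06 and 5.59 at 2 h and 9.30, 9.16 and 9.18 at 0 h. It was 13.5-fold lower at 2 h (log2 change −3.75, standard error 0.22, adjusted p = 3.5e-08). MiR-200c had 4.06, 4.30 and 4.54 at 2 h and 7.70, 7.65 and 7.86 at 0 h, which is 10.8-fold lower (log2 change −3.44, standard error 0.26, adjusted p = 5.0e-07). Both were below the limit on all arrays at 5 h and 10 h.

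MiR-200b was below the limit on all 2 h arrays and above it on 2 of the 3 at 0 h, so that it was at least 1.11-fold lower (adjusted p = 0.00010). MiR-203 and miR-200a were called lower, with changes of −1.11 and −0.95, but lay below the limit at both times, and no fold is given. MiR-200a lost its call without the first 2 h array (adjusted p = 0.068). MiR-141, made with miR-200c, and miR-429, made with miR-200a and miR-200b, were below the limit at both times. Of the 7 epithelial markers 5 were called lower (5.86% of all 717 were lower), and 2 were above the limit on all arrays of either time. The summed linear level of the 7 lay between 69.3 and 91.1 at 2 h and between 800 and 875 at 0 h. Of the 12 fibroblast markers 3 were called higher and 1 lower (7.39% and 5.86% of all 717). Their summed level, to which the brightest add most, lay between 124055 and 124718 at 2 h and between 123614 and 124546 at 0 h. The part of RNA from other cells in these falls was not tested.

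**Figure D5:**
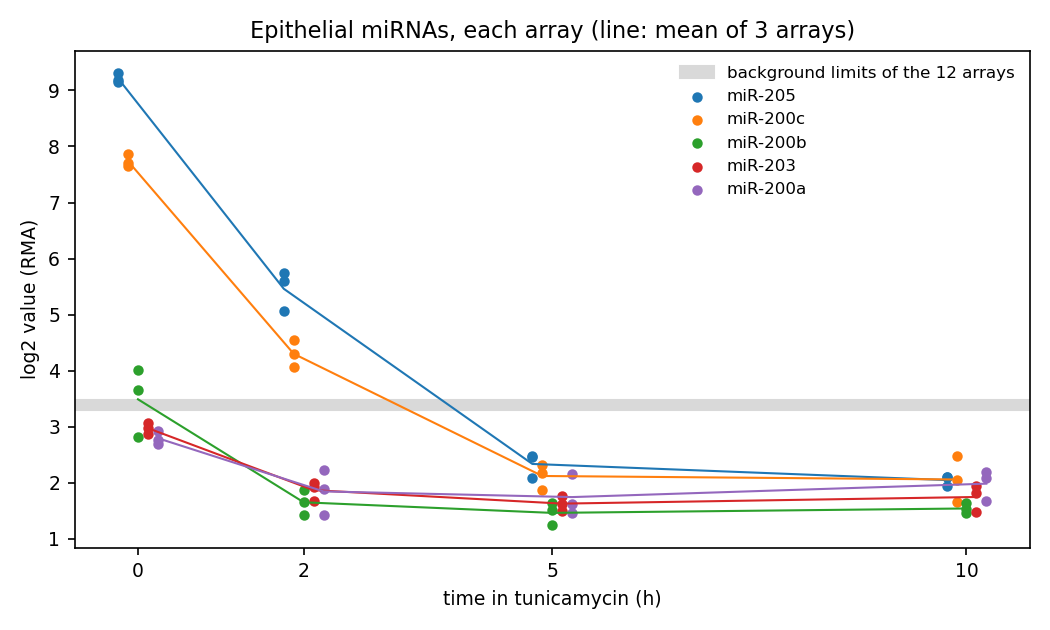
Log2 values of each array (vertical axis) at 0, 2, 5 and 10 h of tunicamycin (horizontal axis) for 5 epithelial miRNAs, with the range of the background limits of the 12 arrays in grey. Lines join means of 3 arrays. MiR-205 and miR-200c were measured at 2 h and had dropped below the limits by 5 h.

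The large repeat-like family of miRNAs in an intron of Sfmbt2, taken here by the names miR-297, miR-466, miR-467 and miR-669, had 7 of 54 members called lower and none higher, with a median change of −0.25. Over all miRNAs 5.86% were lower. It moved with 1 array. The summed linear level of the family was 7325, 7268 and 7723 at 2 h and 8471, 9757 and 8273 at 0 h, and the second 0 h array stood out. Without that array 2 of the 54 were called lower, against 29 of all 717, a share near that of all miRNAs, and the median was −0.18. MiR-466f-3p had 6.73, 6.64 and 6.69 at 2 h and 7.52, 8.56 and 7.22 at 0 h. It fell by 1.08 (standard error 0.24, adjusted p = 0.0084) and was at 0.45 at 5 h. Without the second 0 h array its change was −0.69, and its call was kept without any single array. MiR-669f fell by 0.88 (adjusted p = 0.048) and by 0.43 without the second 0 h array, a call lost without the second 0 h array or any 2 h array (adjusted p up to 0.14). The other called members, miR-466j, miR-467d*, miR-466f-5p, miR-467a-1* and miR-466c-5p, fell by 0.36 to 0.47 (miR-467d* by 0.27 without the second 0 h array), and each lost its call without 3 or more of the 6 arrays in turn.

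Of a list of 13 miRNAs, made of some that the study names and of relatives of these, 3 were called lower at 2 h and none higher. The 3 were miR-17, miR-34a and miR-106b, and the median change of the list was −0.07. Over all miRNAs 5.86% were lower, a share that was larger among bright miRNAs. MiR-216b had 5.54, 5.47 and 5.50 at 2 h and 5.28, 5.10 and 4.85 at 0 h, a change of 0.43 that was not called, although the arrays did not overlap. MiR-217 had 4.44, 4.49 and 4.43 at 2 h and 4.29, 4.37 and 4.16 at 0 h. MiR-708 had 10.32, 10.20 and 10.30 at 2 h and 10.10, 10.09 and 10.11 at 0 h, a change of 0.17 (adjusted p = 0.061), against 1.07 at 10 h. MiR-125b-5p, an abundant fibroblast miRNA, was between 14.58 and 14.59 at 2 h and between 14.57 and 14.59 at 0 h. MiR-216a, miR-204 and miR-211 stayed below the limit throughout both times.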

How the data were processed

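The authors measured total RNA of NIH3T3 cells on GeneChip miRNA arrays and deposited log2 values per probe set, made with RMA (no version given in the submitters' processing notes). For the array version and the genome build the sources used here give nothing. The deposited tables also hold the authors' means, p-values, step-up p-values, ratios, fold changes and analysis of variance statistics, which were not used.

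Of 1412 mouse probe sets, the 717 mature ones were fitted without further normalization in limma 3.58.1 (R 4.3.3; lmFit, eBayes with a trend), with time as a factor of 4 levels over 12 arrays. Two-sided p-values were adjusted by Benjamini-Hochberg and called under 0.05. The background limit was an array's most frequent value plus 3 times the spread below it. A miRNA below it at one time has a bound, from the mean of the other time over the higher of limit and value. The number of arrays limits the precision, with a median standard error of 0.16. Ratios within an array were compared by exact permutation tests, on 25 pairs chosen after their values were seen.

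The members and lists were chosen with earlier results of these data known. Named were the 12 largest rises and falls among called, non-overlapping, measured miRNAs, all members of the proliferation and short-lived lists, called members of other lists, the 10 largest transient changes each way and 13 miRNAs linked to the UPR, not all of which the paper names. MiR-21*, miR-29b*, miR-34c*, miR-140, miR-140*, miR-671-5p, miR-149, miR-2132, miR-2137 and miR-24-2* were added after their values were seen. Scaling, filters, the prior variance, weights of arrays, the methods' t-test, a replicate block and left-out arrays were tried as alternatives. Sequences came from RefSeq.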

Additional observations from a re-analysis of the deposited data

Results flagged for a closer look

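Some changes at 2 h were called in the opposite direction at a later time against 0 h, with the difference between the times called as well (limma). Between 2 h and 5 h these were miR-10b (difference −0.67, adjusted p = 2.9e-07), miR-1187 (1.34, adjusted p = 0.00012), miR-149 (−0.50, adjusted p = 2.8e-05), miR-2132 (0.53, adjusted p = 2.6e-06) and miR-24-2* (0.49, adjusted p = 3.2e-05). Between 2 h and 10 h they were miR-10a (−0.43), miR-10b (−0.68), miR-149 (−0.60), miR-2132 (0.43), miR-2137 (−0.56) and miR-351 (−0.60). With each array shifted to 1 median, the opposite calls held for miR-10b at 5 h, and for none of the others. MiR-1187 and miR-24-2* lost them after quantile normalization too. Without the second 0 h array they were lost for miR-1187, miR-24-2*, miR-10a, and for miR-149 and miR-2132 at both times.

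Of the named miRNAs called at 2 h, those whose change differed by at least 2-fold between the times, beside miR-1187 above, were miR-200c (−2.18 from 2 h to 5 h and −2.24 from 2 h to 10 h), miR-205 (−3.12 and −3.41), miR-466f-3p (1.54 and 1.29) and miR-543 (−1.13 and −1.41). For miR-205 and miR-200c the later times were below the background limit, so the sizes of these differences were not measured. MiR-200c had a mean of only 4.30 at 2 h, against limits of 3.30 to 3.47, so a 2-fold difference is not shown for it. Named miRNAs not called at 2 h that were at least 2-fold higher at 10 h than at 2 h were miR-217 (2.15), miR-216b (1.47) and miR-216a (1.32, below the limit on all 2 h arrays). Groups of 3 arrays are too small to look for single outlying samples.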

How the results depend on the processing

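Of the 95 calls at 2 h, 16 were kept under every alternative run on them (23 to 25 each), 15 falls and the rise of miR-1959, and no called change turned its sign. The number of rises (53), falls (42), transient rises (20) and transient falls (22) moved by over 1.5 times as follows, and the cause was not tested. With each array shifted to 1 median, there were 7 rises, 4 transient rises and 14 transient falls. A shift to 1 median over expressed miRNAs, added later, left 12 transient falls. With all 1412 probe sets in the fit there were 34 rises. Without the variance trend there were 24 rises, 8 transient rises and 13 transient falls. The methods' t-test after Benjamini-Hochberg gave 15 rises, 21 falls, 4 transient rises and 9 transient falls, and at the methods' unadjusted threshold 91 rises. Called and at least 1.5-fold were 4 rises, 14 falls, 2 transient rises and 6 transient falls. Leaving out the second arrays of 0 h and 5 h together, chosen after seeing the data, gave 34 rises. Leaving out 1 array at a time gave 29 to 60 rises, 28 to 43 falls, 11 to 20 transient rises and 16 to 22 transient falls.

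The same-numbered arrays of both times did not deviate together (correlations from −0.08 to −0.03 over 323 miRNAs). With so few arrays at each time, this cannot show whether same-numbered arrays were cultured or run as sets. The labels do not say either. With the replicate number as a block, 43 were higher and 33 lower, with 17 transient rises and 18 transient falls, all within 1.5 times of the values above.

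Uncalled changes near 0 turned their sign. MiR-125b-5p was at −0.028 after the shift and −0.013 after quantile normalization, and miR-204 at −0.00075 after the shift. MiR-92a* was at 0.051 after quantile normalization and 0.12 with array weights. With the second arrays of 0 h and 5 h left out, miR-19a* was at −0.043, miR-211 at 0.18 and miR-92a* at 0.38. Leaving out 1 array at a time gave −0.040 to 0.0047 for miR-25, −0.043 to 0.38 for miR-19a*, −0.48 to 0.18 for miR-211, −0.35 to 0.38 for miR-92a* and −0.025 to 0.12 for miR-204. Signal limits the rest, since 312 of the 717 were at or below the limit on all arrays of both times. With a limit of 2 or 4 spreads in place of 3, as with 3, 90 of the 95 calls were above it on all arrays of 2 h or 0 h.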
